A study of Homo sapiens with 12 samples.

Results

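Neurofilament genes and a set of neuron maturation markers were followed in human neurons after knockdown of ZCCHC17, a zinc knuckle protein of the nucleus. The set was chosen by gene symbol and holds 10 of the 59653 symbols in the authors' count table: NEFL, NEFM, NEFH, INA, PRPH, GAP43, NSG1, NSG2, UCHL1 and THY1. All 10 passed the filter on low counts, which kept 24671 genes. The cells were neurons made from induced pluripotent stem cells of IMR-90, a fetal lung fibroblast line, so all libraries share 1 genetic background. The 12 libraries of total RNA fall into 6 that received negative control siRNA (siNC) and 6 that received siRNA directed at ZCCHC17 (siZCC). NPC, left undefined, also stands in each sample title beside the label neuron. Time after transfection is not given in the sources used here, and nothing says that the replicates are separate cultures, so p-values measure the spread between these libraries, which may be technical.

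Neurofilaments are the intermediate filaments of axons. They are built as heteropolymers of a light (NEFL), a medium (NEFM) and a heavy (NEFH) subunit together with alpha-internexin (INA) or peripherin (PRPH), and they set the calibre of large axons. INA appears early in developing central neurons, NEFL and NEFM follow, and NEFH rises late as axons mature. PRPH is best known from neurons with axons outside the central nervous system. GAP43 is a membrane-bound protein kinase C substrate of the growth cone, NSG1 and NSG2 are paralogous membrane proteins of neuronal endosomes, UCHL1 is an abundant neuronal ubiquitin hydrolase, and THY1 is a lipid-anchored surface glycoprotein of neurons that fibroblasts and some other cells also carry.

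Summed counts per library were between 90755953 and 120023356 for siNC and between 76115083 and 105389055 for siZCC. Levels are in CPM, counts scaled to a common library total after TMM scaling, which corrects totals for differences in composition. The target checked the labels: ZCCHC17 stood at 54.0 to 61.0 CPM in siNC and at 9.37 to 10.6 CPM in siZCC, with no overlap (log2 fold change -2.51, SE 0.0402; adjusted p 3.52e-17). Adjusted p-values here and below come from the quasi-likelihood test of edgeR, with Benjamini-Hochberg adjustment across 24671 genes and a threshold of 0.05. IL1B, an inflammatory cytokine, set libraries apart in both groups, with 449 to 1512 counts in siNC replicates 2, 3 and 6 and siZCC replicates 1, 4 and 5 and with 2 to 12 counts in the other 6 libraries. Values within each of these sets of 6 are given where a call differs. All 16 pan-neuronal genes of a fixed list passed the filter, which is a low bar. In siNC they ran from TUBB3 at 14.2 ± 0.629 CPM to MAP2 at 1027 ± 104 CPM (SD, n = 6 each). RBFOX3, the NeuN antigen of mature neurons, was at only 1.27 ± 0.148 CPM, while the glial filament gene GFAP was at 616 ± 82.0 CPM, the progenitor filament gene NES at 1118 ± 58.8 CPM and the cycling marker MKI67 at 205 ± 16.8 CPM (SD, n = 6 each, siNC). Markers of glia, progenitors and dividing cells were thus present beside those of neurons.

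Promoter sequence is shown for the 5 of the 10 genes found in the RefSeq table (GRCh38.p14), because they include genes that varied in opposite directions between libraries (INA and NSG1 against PRPH) and UCHL1, the gene with the smallest difference between groups. NEFL, NEFM, NEFH, NSG2 and THY1 are not shown. Each line gives the 250 bases before a RefSeq start, from 5′ to 3′ on the gene's strand. GENCODE v29, used below for lengths, begins PRPH, GAP43, NSG1 and UCHL1 further upstream. Their windows may therefore hold transcribed bases. Capitals mark matches on either strand to TATAAA (the TATA box), GGGCGG (the GC box) and CCAAT.
INA, chr10:103276888-103277137, + strand: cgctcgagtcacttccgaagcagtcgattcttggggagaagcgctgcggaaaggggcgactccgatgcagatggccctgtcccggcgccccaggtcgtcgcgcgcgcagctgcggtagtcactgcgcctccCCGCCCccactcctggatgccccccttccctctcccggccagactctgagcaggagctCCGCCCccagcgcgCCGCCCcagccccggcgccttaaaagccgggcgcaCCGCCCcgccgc
NSG1 upstream start, chr4:4386282-4386531, + strand: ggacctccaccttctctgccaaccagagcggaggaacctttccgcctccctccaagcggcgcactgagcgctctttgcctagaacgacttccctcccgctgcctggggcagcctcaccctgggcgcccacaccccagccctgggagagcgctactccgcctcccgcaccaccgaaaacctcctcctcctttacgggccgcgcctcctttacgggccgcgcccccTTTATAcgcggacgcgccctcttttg
NSG1 downstream start, chr4:4386852-4387101, + strand: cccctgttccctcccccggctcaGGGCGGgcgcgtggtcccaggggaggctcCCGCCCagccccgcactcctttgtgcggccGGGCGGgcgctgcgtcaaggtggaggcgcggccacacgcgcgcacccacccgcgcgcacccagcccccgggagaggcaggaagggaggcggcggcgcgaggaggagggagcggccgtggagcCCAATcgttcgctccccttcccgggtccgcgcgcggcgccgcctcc
PRPH, chr12:49294897-49295146, + strand: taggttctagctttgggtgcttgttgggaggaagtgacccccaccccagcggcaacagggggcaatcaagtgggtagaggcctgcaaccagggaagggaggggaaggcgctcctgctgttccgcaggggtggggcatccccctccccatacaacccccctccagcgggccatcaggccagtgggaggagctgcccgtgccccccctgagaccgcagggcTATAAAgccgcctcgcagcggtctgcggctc
GAP43, chr3:115623260-115623509, + strand: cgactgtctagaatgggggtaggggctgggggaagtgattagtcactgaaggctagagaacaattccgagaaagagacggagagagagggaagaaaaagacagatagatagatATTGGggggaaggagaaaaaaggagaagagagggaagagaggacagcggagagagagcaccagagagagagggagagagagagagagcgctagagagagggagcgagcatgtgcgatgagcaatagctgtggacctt
UCHL1, chr4:41256678-41256927, + strand: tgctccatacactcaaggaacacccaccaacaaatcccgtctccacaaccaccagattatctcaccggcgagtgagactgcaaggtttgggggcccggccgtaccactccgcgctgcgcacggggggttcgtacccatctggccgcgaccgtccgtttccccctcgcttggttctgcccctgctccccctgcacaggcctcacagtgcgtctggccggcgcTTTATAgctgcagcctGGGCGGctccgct
TATAAA was found in 10.7% of the 35116 promoters of this length in the table, GGGCGG in 42.6% and CCAAT in 32%. INA held 4 GC boxes and no TATAAA in this window. PRPH held TATAAA at position -31, counted back from the start, and no GC box. NSG1 has 2 starts in the RefSeq table. TATAAA stood in reverse at -26 before the upstream one, and 3 GC boxes and 1 CCAAT stood before the downstream one. UCHL1 held TATAAA in reverse at -29 and 1 GC box, and GAP43 held only 1 CCAAT in reverse. The last motif searched, CANNTG (the E-box, not capitalised), occurred in 61.8% of all promoters and had 2 matches in INA, 1 each in PRPH, GAP43 and UCHL1 and 0 in either NSG1 window. No 2 of these matches shared a base. CpG pairs numbered 35 before the downstream NSG1 start, 30 in INA, 22 before the upstream NSG1 start, 20 in UCHL1, 10 in PRPH and 7 in GAP43, with a median of 11 over all promoters. Such matches describe the letters and are not shown to be binding sites.

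All 10 genes had a lower fitted level in siZCC than in siNC, and 7 of them fell: NEFM, NEFH, INA, PRPH, GAP43, NSG1 and THY1. None rose. The log2 fold changes of these 7 ran from -0.12 in THY1 to -0.30 in PRPH. NEFL, NSG2 and UCHL1 did not pass the threshold. Across all genes tested 10.8% were called lower and 11.4% higher (22.2% in either direction). Of the 2492 genes averaging 100 CPM or more, 12.8% were called lower. The median log2 fold change was -0.16 over the 10 genes and -0.002 over all genes tested. In bulk RNA, fewer cells of a type and less RNA per cell cannot be told apart.

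**Figure D1:**
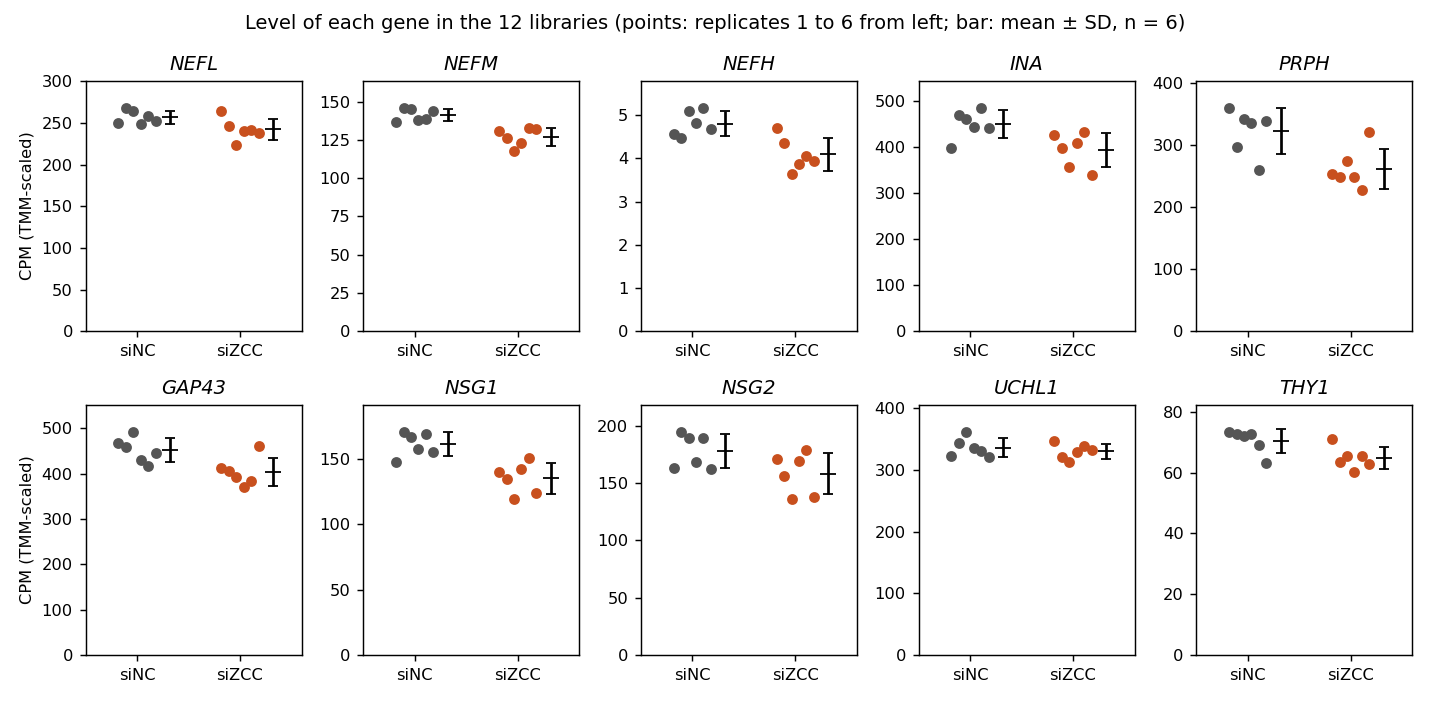
Level of each of the 10 genes, in TMM-scaled CPM on an axis from 0, in the 6 siNC (grey) and 6 siZCC (orange) libraries; the bar beside each set of points is the mean ± SD. NEFM is the gene whose siZCC points (118 to 133) all lie below the siNC points (137 to 146), while the UCHL1 points of both groups cover nearly the same range.

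The neurofilament subunits were taken first. NEFM, the medium subunit, had its lowest, median and highest siNC library at 137, 141 and 146 CPM and its siZCC libraries at 118, 128 and 133 CPM. Every siZCC library lay below every siNC library, the only one of the 10 genes of which this was true; over all genes tested 4.50% were separated in this direction and 9.74% in either. NEFM fell by 10.2% (141 ± 4.14 to 127 ± 6.01 CPM, SD, n = 6 each; log2 fold change -0.16, SE 0.0331, adjusted p 0.0028). With 3 libraries a group, the log2 fold change was -0.17 (adjusted p 0.0295) where IL1B counts were many and -0.14 (adjusted p 0.0933) where they were few.

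NEFL is the light subunit. Its siNC libraries had a low, median and high of 249, 255 and 268 CPM, and its siZCC libraries of 224, 241 and 264 CPM. In 5 siZCC libraries NEFL was below the lowest siNC library, and siZCC replicate 1, at 264 CPM, was above the siNC median. The log2 fold change was -0.08 (95% interval -0.16 to -0.01, adjusted p 0.0938) and so missed the threshold. Without siZCC replicate 1 it was -0.11, with an adjusted p of 0.0175.

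NEFH, the heavy subunit with the long phosphorylated tail, was the scarcest of the 10 genes, with 289 to 620 counts per library. It stood at 4.48, 4.75 and 5.17 CPM (lowest, median, highest) in siNC and at 3.65, 4.0 and 4.71 CPM in siZCC. Again siZCC replicate 1 was the high one of its group and the only one to overlap the controls. NEFH fell by 14.7% (log2 fold change -0.23, SE 0.0670, adjusted p 0.0208). Its log2 fold change was -0.18 in the libraries with many IL1B counts and -0.29 in those with few, neither past the threshold with 3 libraries a group (adjusted p 0.309 and 0.0923).

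INA, the internexin subunit of central neurons, was far more abundant. Its siNC libraries stood at 398, 452 and 485 CPM (lowest, median, highest) and its siZCC libraries at 340, 404 and 433 CPM. The groups overlapped through siNC replicate 1, the lowest control, and only 3 siZCC libraries lay below it. INA fell by 12.4% (log2 fold change -0.19, SE 0.0572, adjusted p 0.0235). Libraries with few IL1B counts gave -0.28 (adjusted p 0.0465) and those with many gave -0.11 (adjusted p 0.0993); the difference between these sets was not tested.

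PRPH had the largest difference of the set and the widest spread. It ran over 260, 337 and 360 CPM (lowest, median, highest) in siNC and over 227, 250 and 321 CPM in siZCC. The groups overlapped through siNC replicates 2 and 5, at 297 and 260 CPM. On the other side were siZCC replicates 3 and 6, at 274 and 321 CPM. PRPH fell by 18.7% (322 ± 36.9 to 262 ± 32.7 CPM, SD, n = 6 each; log2 fold change -0.30, SE 0.0793, adjusted p 0.0121). In the libraries with many IL1B counts it was -0.43 (adjusted p 0.00342) and in those with few -0.18 (adjusted p 0.389), and this difference was not tested. ISL1, POU4F2, DBH, HAND2 and SOX10, genes of peripheral neurons or their glia, each averaged under 0.1 CPM, while the transcription factor gene GATA3 was at 100 ± 8.95 CPM (SD, n = 6) in siNC. Of 16 fixed genes for peripheral, sensory and motor neurons 9 were tested, and 1 was lower, AVIL, an actin-binding protein of sensory neurons (11 ± 1.47 to 6.65 ± 0.718 CPM, SD, n = 6 each; log2 fold change -0.73). Their summed level was 109 to 133 CPM in siNC and 99.2 to 129 CPM in siZCC, most of it from GATA3. Their part in the PRPH result was not tested.

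Since a ratio of 2 genes within a library does not depend on scaling, 5 ratios of counts were compared by an exact permutation test (two-sided), adjusted over the 5. The NEFL to NEFM ratio was 1.82 ± 0.0359 in siNC and 1.91 ± 0.0836 in siZCC (SD, n = 6 each; exact p 0.0433, adjusted 0.108). NEFH to NEFM was 0.0340 ± 0.00236 and 0.0322 ± 0.00242 (exact p 0.225, adjusted 0.225). INA to NEFL was 1.75 ± 0.0929 and 1.62 ± 0.123 (exact p 0.0844, adjusted 0.127), and PRPH to NEFL was 1.26 ± 0.164 and 1.09 ± 0.164 (exact p 0.102, adjusted 0.127). None of these 4 subunit ratios differed beyond the spread at the adjusted threshold with all libraries. NEFL to NEFM passed without siZCC replicate 5 (adjusted p 0.0361) or 6 (0.0379), and INA to NEFL without siZCC replicate 5 (0.0361).

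**Figure D2:**
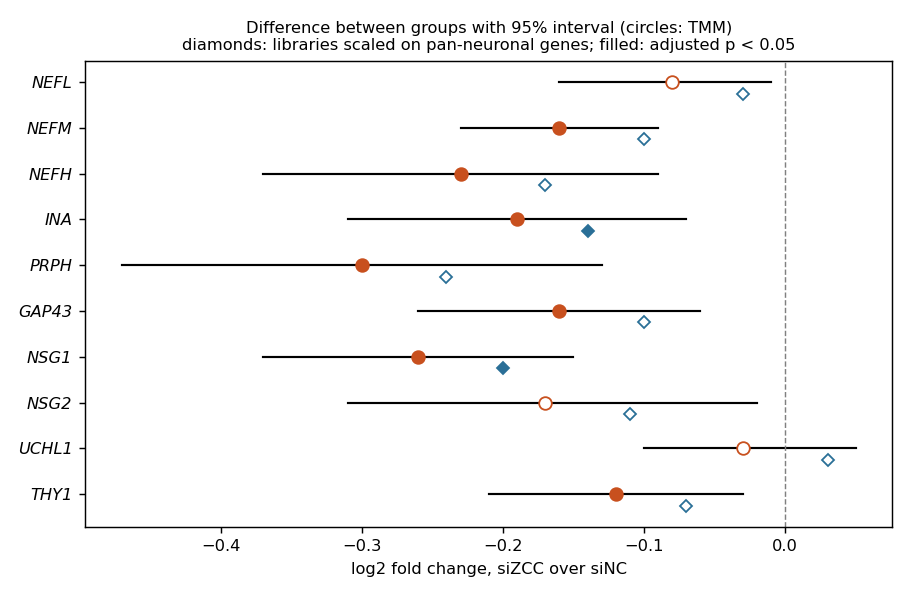
Log2 fold change of each gene, siZCC over siNC, with its 95% interval (circles and lines, TMM scaling; filled where the adjusted p is under 0.05) and the same value after scaling the libraries on pan-neuronal genes (diamonds). With TMM scaling all 10 circles lie below 0 and 7 are filled; on the pan-neuronal scale only INA and NSG1 remain filled, and UCHL1 lies at 0.03.

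GAP43, the growth cone protein, was measured at 417, 452 and 493 CPM (lowest, median, highest) in siNC and at 370, 399 and 460 CPM in siZCC. Only siZCC replicate 6 reached into the control range. GAP43 fell by 10.6% (log2 fold change -0.16, SE 0.0484, adjusted p 0.0235). The call rested on several libraries and was lost without siNC replicate 1 (adjusted p 0.0527) or 3 (0.0542) or siZCC replicate 4 (0.0611) or 5 (0.0525). Its log2 fold change was -0.26 (adjusted p 0.0124) in the libraries with many IL1B counts and -0.06 (adjusted p 0.603) in those with few, a difference that was not tested.

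The endosomal paralogs were set side by side. NSG1 stood at 148, 163 and 171 CPM (lowest, median, highest) in siNC and at 119, 137 and 151 CPM in siZCC, where replicate 5 was the only library above the lowest control. It fell by 16.3% (162 ± 9.06 to 135 ± 11.9 CPM, SD, n = 6 each; log2 fold change -0.26, SE 0.0519), and its adjusted p of 0.0020 was the smallest of the 10. NSG1 was called in the libraries with many IL1B counts (-0.19, adjusted p 0.0324) and in those with few (-0.33, adjusted p 0.00841). NSG2 stood at 162, 178 and 195 CPM in siNC and at 136, 162 and 179 CPM in siZCC, with 3 siZCC libraries inside the control range. Its log2 fold change of -0.17 (95% interval -0.31 to -0.02) had an adjusted p of 0.0876. NSG2 passed without siZCC replicate 5 (-0.20, adjusted p 0.0389) and with the IL1B split as a block (adjusted p 0.0310). Its log2 fold change was -0.07 (adjusted p 0.496) where IL1B counts were many and -0.27 (adjusted p 0.0317) where they were few; this difference was not tested. The ratio of NSG1 to NSG2 was 0.877 to 0.958 in siNC and 0.815 to 0.897 in siZCC (means 0.912 ± 0.0321 and 0.857 ± 0.0284, SD, n = 6 each; exact permutation test, p 0.00866, adjusted over the 5 ratios 0.0433). That call was lost when any single library other than siNC replicate 2 or siZCC replicate 5 or 6 was left out, with adjusted p-values up to 0.108. CALY, the other member of this family, averaged 11.9 ± 0.954 CPM under siNC and 13.3 ± 1.58 CPM under siZCC (SD, n = 6 each; log2 fold change 0.16), and it did not pass the test.

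UCHL1 showed the smallest difference. Its siNC libraries had a low, median and high of 320, 333 and 362 CPM, and its siZCC libraries of 313, 331 and 346 CPM. The groups overlapped almost throughout (log2 fold change -0.03, 95% interval -0.10 to 0.05, adjusted p 0.650), so a fall beyond 0.10 on the log2 scale lies outside the interval. Of its 3 relatives and 6 ubiquitin supply and recycling genes in a list of 10 with CALY, 1 was lower, the polyubiquitin gene UBB (76.5 ± 6.99 to 63.4 ± 3.89 CPM, SD, n = 6 each; log2 fold change -0.27, adjusted p 0.00214), and 0 were higher.

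THY1, the surface glycoprotein, was at 63.1, 72.2 and 73.5 CPM (lowest, median, highest) in siNC and at 60.2, 64.4 and 71.0 CPM in siZCC. The controls siNC replicates 5 and 6, at 69.0 and 63.1 CPM, lay inside the siZCC range, and 2 siZCC libraries were below replicate 6. THY1 fell by 8.15% (log2 fold change -0.12, SE 0.0420, adjusted p 0.0448). This call was the least secure: omitting any one of siNC replicates 1 to 4 or siZCC replicates 2 to 6 ended it, 9 of the 12 such fits, with adjusted p-values from 0.0533 to 0.107. It was -0.08 (adjusted p 0.5) where IL1B counts were many and -0.17 (adjusted p 0.0381) where they were few. Markers of mesenchymal cells and fibroblasts, which also carry THY1, were counted beside it. Of 14 such genes 6 were lower and 1 higher, with a median log2 fold change of -0.25, and their summed level was 518 to 873 CPM in siNC and 392 to 612 CPM in siZCC. Most of that sum came from ACTA2, TAGLN, PDGFRB and COL1A1 (128 ± 88.6 CPM in siNC, SD, n = 6, not called). COL1A2, PDGFRA and COL6A3 were at only 0.706, 0.393 and 0.153 CPM in siNC, while FBN1 was at 41.8 and LUM at 14.3 CPM. The contractile gene ACTA2 fell from 214 ± 22.2 to 144 ± 19.5 CPM and the pericyte receptor gene PDGFRB rose from 83.5 ± 3.22 to 112 ± 10.2 CPM (SD, n = 6 each). Without siNC replicate 4 or 6 or siZCC replicate 4 only 4 genes of that list were called. Endothelial, microglial and T cell genes summed to 5.27 to 7.49 CPM in siNC and to 4.07 to 5.6 CPM in siZCC, and CDH5, AIF1, CX3CR1, C1QA, CD3E and CD3D averaged under 0.1 CPM; 1 of the 5 tested was lower, CLDN5 (log2 fold change -0.64). Whether such cells were present, and their part in the THY1 result, was not tested.

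Levels between genes can be compared only per length, here as CPM per kilobase of annotated exons in siNC. GAP43 was highest at 217 ± 13.0, followed by UCHL1 at 147 ± 6.86 and INA at 139 ± 9.24 (SD, n = 6 each), and the ranges of UCHL1 and INA overlapped. PRPH at 74.0 ± 8.48 and NEFL at 59.3 ± 1.85 came next and also overlapped. NSG2 at 45.0 ± 3.74, NSG1 at 37.1 ± 2.08 and NEFM at 32.3 ± 0.945 were each separate from their neighbours in all 6 libraries. THY1 at 11.9 ± 0.660 and NEFH at 1.27 ± 0.0749 closed the order, so the heavy subunit was listed far below the light and medium ones. The same order held for the means in siZCC, from 194 ± 15.0 for GAP43 to 1.08 ± 0.1 for NEFH. Exon lengths are unions over all annotated transcripts, which lowers the value of genes with long rare transcripts. The principal transcript has 3 exons in NEFM, INA and GAP43 and 4 in NEFL, NEFH and THY1. It has 5 in NSG2 and 9 in PRPH, NSG1 and UCHL1. Both called and uncalled genes occur at 4 and at 9 exons.

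After each group's mean was subtracted, the genes did not vary as 1 block between libraries. INA, NSG1 and NSG2 varied together and PRPH varied opposite to them. Over the 12 libraries Pearson's r was 0.97 for NSG1 with NSG2 (Spearman's rho 0.94), 0.93 for INA with NSG1 (rho 0.88) and 0.91 for INA with NSG2 (rho 0.93). It was -0.86 for INA with PRPH (rho -0.82), -0.76 for PRPH with NSG1 (rho -0.76) and -0.75 for PRPH with NSG2 (rho -0.73). These 6 of 45 pairs passed a permutation test within groups (100000 permutations, two-sided, adjusted over the 45 pairs), with adjusted p-values for r of 0.0009, 0.00259, 0.00225, 0.0009, 0.036 and 0.036 in that order. For rho the adjusted values were 0.00562, 0.015 and 0.00562 for the 3 positive pairs, 0.015 for INA with PRPH, and 0.0585 for PRPH with NSG1 and with NSG2. Without the 2 libraries farthest from the median of the first-named gene, r was 0.97, 0.95, 0.94, -0.73, -0.79 and -0.75. Within the libraries with many and with few IL1B counts it was 0.93 and 0.96, 0.87 and 0.92, 0.88 and 0.92, -0.80 and -0.94, -0.84 and -0.81, and -0.73 and -0.88. Both INA and PRPH fell with the knockdown although they varied in opposite directions among libraries of 1 treatment. PRPH and GAP43 varied together less firmly, at r 0.72 (rho 0.69; permutation test, adjusted p 0.0742), which dropped to 0.42 without the 2 farthest libraries.

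**Figure D3:**
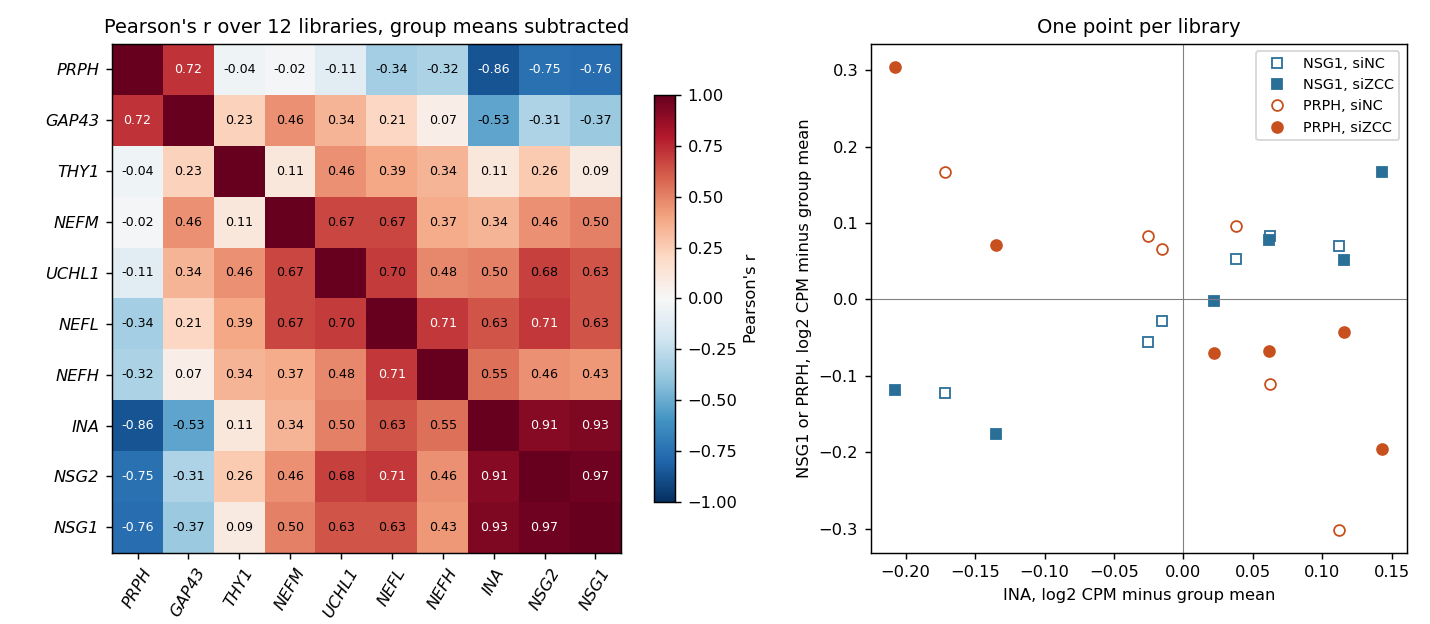
Left, Pearson's r between the 10 genes over 12 libraries, in log2 CPM with the group mean subtracted; right, NSG1 (blue squares) and PRPH (orange circles) against INA on the same scale, with open symbols for siNC and filled symbols for siZCC. NSG1 climbs with INA (r 0.93) and PRPH declines (r -0.86), and both groups lie on the same trends.

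From the 12625 genes averaging 5 CPM or more, the 2 genes most like each member by that correlation were named, as a description of 12 libraries with no test. The highest of so many values over 12 libraries are large by selection alone, and how large was not tested. INA varied most like YWHAH (r 0.98) and ZNRF1 (0.97), NSG1 like RTN2 (0.98) and CELF4 (0.98), and NSG2 like SVOP (0.98) and CRABP1 (0.98). PRPH had ECI2 (0.97) and OCIAD2 (0.96), and GAP43 had GTF2A2 (0.98) and PSMD7 (0.93). UCHL1 had UQCC2 (0.97) and TMSB10 (0.96). Likeness was lower for the neurofilament triplet, with NDUFC1 (0.91) and TUSC2 (0.89) for NEFL, IMMP1L (0.86) and FBXO10 (0.84) for NEFM and NR2F1-AS1 (0.86) and SLC22A23 (0.85) for NEFH, and for THY1, with AL161772.1 (0.93) and AC012313.2 (0.82). Of these 20 genes 3 were lower in siZCC, OCIAD2 (log2 fold change -0.44), RTN2 (-0.19) and TUSC2 (-0.14), and AL161772.1 was higher (0.16, adjusted p 0.0499).

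Other genes of the same structures were then counted. Of 11 other intermediate filament genes 5 were lower and 0 higher, with a median log2 fold change of -0.02. The nuclear lamina genes LMNA (139 ± 8.74 to 118 ± 4.01 CPM, log2 fold change -0.24) and LMNB1 (96.4 ± 4.76 to 82.9 ± 3.46 CPM, -0.22; SD, n = 6 each) had the smallest p-values, and SYNM, KRT8 and KRT18 were the rest. VIM, the vimentin gene and the most abundant of the list, was at 3550 ± 109 and 3595 ± 137 CPM (adjusted p 0.716). Among 21 genes for transport, linkage, phosphorylation and turnover of neurofilaments 4 were higher and 0 lower, with a median of 0.00. KIF1A, a kinesin of axonal transport, rose from 1120 ± 53.3 to 1305 ± 53.2 CPM, and DST, a linker of filaments to the cytoskeleton, from 583 ± 54.7 to 667 ± 15.7 CPM (SD, n = 6 each). The kinesin genes KIF5A, KIF5B and KIF5C were not called (log2 fold changes of -0.06, -0.04 and -0.03). Only 2 genes of this list were called without siZCC replicate 3 or 6. DYNC1H1, the dynein heavy chain and the most abundant, was at 1409 ± 81.9 and 1419 ± 40.1 CPM (adjusted p 0.871).

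Growth cone and axon growth genes went both ways. Of 20, 5 were lower and 2 higher, with a median log2 fold change of -0.05. DPYSL3, a cytoskeletal regulator of the growth cone and the most abundant of the list, fell from 1289 ± 23.0 to 1141 ± 40.8 CPM and the guidance ligand gene SLIT2 from 369 ± 42.6 to 291 ± 16.3 CPM (SD, n = 6 each).

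Among 16 pan-neuronal genes 5 were lower and 2 higher, with a median log2 fold change of -0.06 and a summed level of 4108 to 4686 CPM in siNC and 3898 to 4462 CPM in siZCC. RTN1, a reticulon of the neuronal endoplasmic reticulum, fell from 241 ± 9.24 to 200 ± 12.5 CPM and ENO2, the neuronal enolase, rose from 253 ± 16.2 to 285 ± 11 CPM (SD, n = 6 each). MAP2, the most abundant, had a log2 fold change of 0.01 (adjusted p 0.939). Without siNC replicate 2 or siZCC replicate 6 only 4 of these genes were called. When libraries were scaled so that the mean log2 level of this list was equal in all of them, a setting added after seeing the data, 2 of the 10 genes were called, INA (-0.14, adjusted p 0.0415) and NSG1 (-0.20, adjusted p 0.00253). Under that scaling 14.7% of all genes were called, 3622 of 24671, and 78.3% of the calls were higher in siZCC, against 51.4% of the calls with TMM scaling. PRPH was then at -0.24 (adjusted p 0.124), NEFH at -0.17 (0.125), NEFM at -0.10 (0.184), GAP43 at -0.10 (0.357), THY1 at -0.07 (0.502) and UCHL1 at 0.03 (0.722). The other 2, NSG2 and NEFL, were at -0.11 (0.128) and -0.03 (0.727).

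Genes of young and of mature neurons were compared as separate lists. Of 15 immature neuron genes 5 were lower and 0 higher (median log2 fold change -0.10, summed level 2640 to 2880 CPM in siNC and 2404 to 2671 CPM in siZCC). DCX, the doublecortin gene of migrating neurons, fell from 649 ± 41.8 to 553 ± 39.2 CPM with no overlap of the groups, and STMN1 fell from 437 ± 25.5 to 389 ± 18.9 CPM (SD, n = 6 each). SOX4, the most abundant, had a log2 fold change of -0.03 (adjusted p 0.505). Of 15 mature neuron genes tested 1 was lower, the glutamate receptor gene GRIN2A (14 ± 2.65 to 10.2 ± 0.599 CPM, SD, n = 6 each; log2 fold change -0.46), and 0 were higher (median -0.04, summed level 792 to 864 CPM in siNC and 791 to 846 CPM in siZCC). MAP1A, the most abundant of them, was at 344 ± 10 and 352 ± 10.9 CPM (adjusted p 0.458). A difference between these 2 lists was not tested.

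Markers of other cell types also differed between groups. Of 15 progenitor and cycling genes 6 were lower and 4 higher, with a median log2 fold change of 0.02 and a summed level of 3551 to 3762 CPM in siNC and 3429 to 3723 CPM in siZCC. CCNB1 (50.2 ± 2.04 to 33.0 ± 2.14 CPM) and BIRC5 (37.7 ± 0.893 to 26.5 ± 1.65 CPM; SD, n = 6 each), genes of mitosis, had the smallest p-values of the list, MKI67 fell from 205 ± 16.8 to 143 ± 13.8 CPM (SD, n = 6 each), and NES, the most abundant, had a log2 fold change of 0.02. Of 12 astrocyte genes 5 were higher and 1 lower (median 0.07, summed level 2497 to 2741 CPM in siNC and 2609 to 2990 CPM in siZCC). The glycolytic gene ALDOC rose from 9.86 ± 1.37 to 19.5 ± 2.37 CPM and NDRG2 from 66.0 ± 4.94 to 91.7 ± 12.6 CPM, while GFAP, the most abundant, was at 616 ± 82.0 and 653 ± 128 CPM (SD, n = 6 each; log2 fold change 0.09, not called). Of 5 pluripotency genes tested 3 were higher and 0 lower, at low levels (summed 27.4 to 29.5 CPM in siNC and 33.7 to 35.1 CPM in siZCC), with DPPA4 at 4.36 ± 0.393 and 8.08 ± 0.745 CPM, SALL4 at 4.58 ± 0.186 and 5.64 ± 0.321 CPM and NANOG, the most abundant, at 11 ± 0.466 and 12.2 ± 0.563 CPM (SD, n = 6 each), while LIN28A, ZFP42 and TDGF1 averaged under 0.1 CPM. POU5F1 was at 0.718 ± 0.0687 and 0.823 ± 0.0545 CPM (SD, n = 6 each) and was not called. Whether pluripotent cells were present was not tested. The part of any of these cell types in the lower neurofilament and marker levels was not tested.

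**Figure D4:**
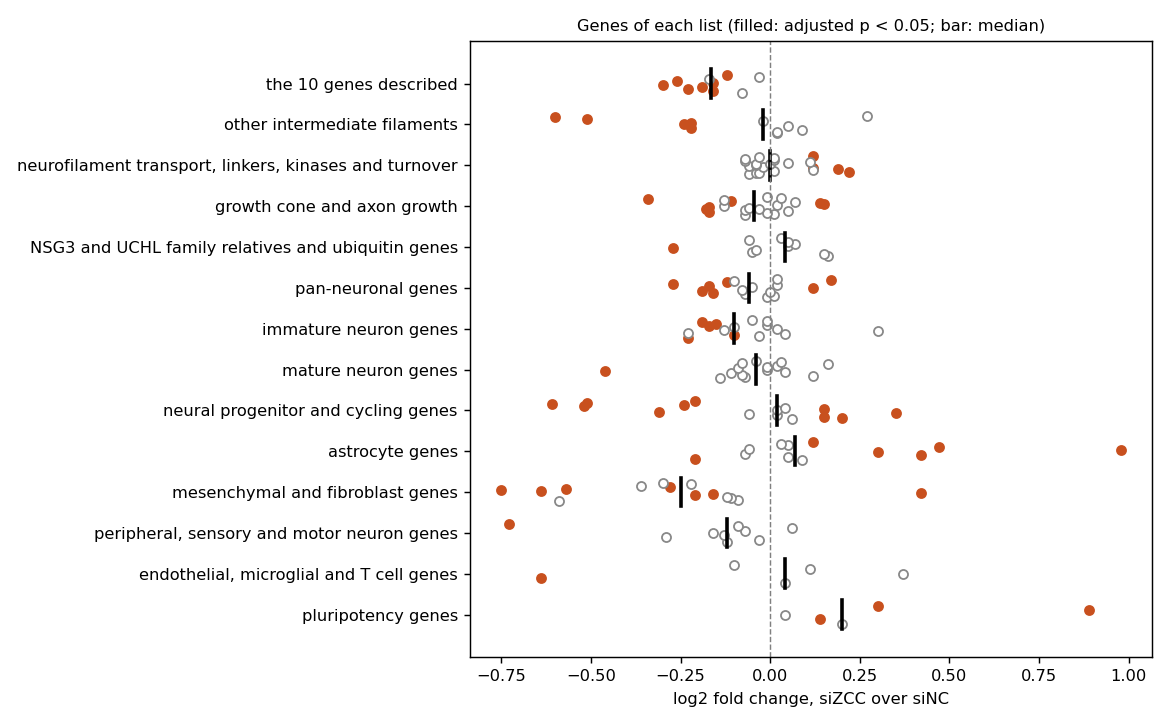
Log2 fold change, siZCC over siNC, of every tested gene of each list (filled orange where the adjusted p is under 0.05) with the list's median as a black bar. The 10 genes described have a median of -0.16 and lie at or below -0.03; mesenchymal genes (median -0.25) and immature neuron genes (median -0.10) also lie mostly below 0, and pan-neuronal genes (median -0.06) and mature neuron genes (median -0.04) spread to both sides; differences between lists were not tested.

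Reads of overlapping genes are a limit, since the strand setting of the counting is not given. In GENCODE v29, exons of an opposite-strand gene overlap those of NEFL, NEFM, NEFH, PRPH, NSG1, UCHL1 and THY1. Among the partners present in the table, AF106564.1 (opposite NEFM) averaged 14.5 CPM and STX18 (opposite NSG1) 37.7 CPM, the others were at 4.21 CPM or less, and none passed the test.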

How the data were processed

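Total RNA libraries of 6 siNC and 6 siZCC samples were compared; groups and replicate numbers come from the sample titles. Lysis in Qiazol and a strand-marking library kit, NEBNext Ultra II Directional, are given per the labels. The authors deposited whole-number counts per gene symbol, 1 column per library. The submitters' processing notes name bcl2fastq 2.17, STAR 2.7.6a, featureCounts 2.0.1 and the build GRCh38; the annotation and strand setting are not given in the sources used here.

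Counts were analysed in R 4.3.3 with edgeR 4.0.16: filterByExpr (about 0.0997 CPM), TMM scaling, and glmQLFit and glmQLFTest over all 12 libraries, with Benjamini-Hochberg adjustment over the 24671 genes kept. SE is the log2 fold change divided by the square root of F, and a prior count of 2 entered log2 CPM. Ratios were tested by exact permutation over 924 assignments. Correlations were computed in Python 3.11.15. Lengths are from GENCODE v29. The biological coefficient of variation was 6.55%. On simulated counts for this comparison (24366 genes tested) 38.5% of 65 genes with a true log2 change of 0.25 were called, 69.7% of 66 at 0.5 and 87.3% of 63 at 1, and 7.35% of calls were false.

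The 10 genes, the lists and the tests were chosen with earlier results of these data known. NES, GFAP, STMN2, NCAM1, TUBB3 and SNAP25 stand in 2 lists each. Named genes are the 10, ZCCHC17, the 2 smallest adjusted p-values under 0.05 and the most abundant gene of each list, and the 2 genes most like each of the 10; other genes named were chosen after their values were seen. Some genes of the lists are not reported here. Alternatives were other scalings, filters, DESeq2 1.42.0 and limma 3.58.1 voom, blocks for the replicate number and the IL1B split, each side of that split, and leaving out each library.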

Additional observations from a re-analysis of the deposited data

Results flagged for a closer look

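Library totals and the log2 CPM of the 10 genes and ZCCHC17 were examined in each group, 24 groups of 6 in all, for an extreme library set off by a gap that is large against the range (Dixon's criterion at 95%); chance gives this in about 1 group in 20. It occurred once. At 90755953 counts, siNC replicate 4 had the smallest control library, and the remaining 5 held between 109973707 and 120023356, so that the gap took 0.657 of the range. None of the 10 genes had such a library in either group. Without siNC replicate 4 the genes called were NEFM, NEFH, INA, PRPH, GAP43 and NSG1.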

How the results depend on the processing

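Under DESeq2 size factors, upper quartile scaling, a mean count of at least 50, DESeq2's Wald test and limma voom, the same 7 genes were called. With no filter on low counts NSG2 passed as well (-0.17, adjusted p 0.0436), and likewise with the IL1B split as a block (-0.17, 0.0310). The whole-table count of 5481 stayed between 4785 and 6070 in these fits, and the peripheral neuron list had 2 calls in place of 1 in DESeq2's Wald test. Each side of the IL1B split, with 3 libraries a group, called 4 of the 10 genes: NEFM, PRPH, GAP43 and NSG1 with many counts, and INA, NSG1, NSG2 and THY1 with few. Over all genes these fits called 8.20% and 6.45%, against 22.2% with all libraries. Calls lost with many counts were NEFH (-0.18), INA (-0.11) and THY1 (-0.08), and with few counts NEFM (-0.14), NEFH (-0.29), PRPH (-0.18) and GAP43 (-0.06), while NSG2 was gained (-0.27). Scaling on the pan-neuronal list, added after seeing the data, gave 2 calls; it lost NEFM (-0.10), NEFH (-0.17), PRPH (-0.24), GAP43 (-0.10) and THY1 (-0.07) and turned UCHL1 to 0.03, and it moved the median of all genes to 0.056. The cause of these changes was not tested. Each side of the IL1B split also had fewer libraries than the main fit, and the part of this was not tested either.

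Leaving out each library gave 5 to 8 of the 10 genes and 4484 to 5626 genes in all. Ranges of the log2 fold change were -0.11 to -0.07 for NEFL, -0.21 to -0.14 for GAP43, -0.20 to -0.13 for NSG2 and -0.15 to -0.10 for THY1. Ranges of the log2 ratio were 0.06 to 0.09 for NEFL to NEFM, -0.14 to -0.07 for INA to NEFL and -0.10 to -0.08 for NSG1 to NSG2. List counts ranged from 2 to 5 for neurofilament transport and turnover, 1 to 2 for the UCHL relatives, 4 to 6 for pan-neuronal genes and 4 to 8 for mesenchymal genes. ZCCHC17 stayed between -2.53 and -2.49.

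Same-numbered libraries of the 2 groups did not deviate together (correlations of -0.08 to 0.02). This does not settle whether the numbers pair the samples. Many IL1B counts were found in siNC replicates 2, 3 and 6 and siZCC replicates 1, 4 and 5. No number had them in both groups. The replicate block lowered some SEs and raised others. It changed that of PRPH from 0.0793 to 0.0481 and that of NEFH from 0.0670 to 0.0767. With the replicate block 4902 genes were called in all and the same 7 of the 10 genes; the NSG1 to NSG2 ratio was -0.09 with an adjusted p of 0.0781 in sign-flip permutation over 6 pairs. The ratio was lower in siZCC in all 6 pairs, so its unadjusted p was 0.0312, the smallest that 6 pairs allow, and the lost call says nothing about stability. In simulated counts, most changes of 0.25 on the log2 scale were missed. Only 65, 66 and 63 of 24366 genes were changed there, at 0.25, 0.5 and 1. In the real data 22.2% of genes were called. Benjamini-Hochberg adjustment is stricter when fewer genes change, so the simulated rate of recovery may be too low for these libraries. That rate is not specific to the 10 genes, of which NEFM and GAP43 were called at -0.16 and THY1 at -0.12. Among the uncalled genes, the 95% interval reached down to -0.31 in NSG2, -0.16 in NEFL and -0.10 in UCHL1. NEFH, with 289 to 620 counts per library, is the gene most exposed to counting error.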
